A study of Homo sapiens with 6 samples.

Results

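The 4 Polo-like kinase genes PLK1, PLK2, PLK3 and PLK4 were described in COV434 cells, a human cell line labelled as granulosa cells, among 16798 coding genes with deposited expression values. RNA-seq libraries of total RNA were made from 3 untreated control samples and 3 samples treated with 15 µM 4-hydroxycyclophosphamide (4HC) for 24 h. 4HC is the active metabolite of the alkylating drug cyclophosphamide (CTX), and the sample labels call the treated group CTX. The genotype field of the labels reads WT for the controls and CTX for the treated samples, with no other genetic change named. The labels name no vehicle and do not say whether the 3 replicates of a group were grown separately, so the spread between them may be technical. The genes were selected by symbol, and PLK1 and PLK3 were known to move in opposite directions between 4HC and control when the set was chosen. The 4HC and control values of the 4 genes are therefore given as a description, without a test.

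The total of expected counts, which are estimates of the reads from each gene, was between 16133786 and 16702316 per sample. Of the 11 granulosa cell markers examined, 10 were in the table, and 7 had 3 counts or fewer in every sample, among them FOXL2, FSHR and CYP19A1. The summed level of the granulosa markers was 24 to 33.2 TPM in control and 27.9 to 29.2 TPM in 4HC. Most of it came from HSD17B1, at 22.5 TPM in control and 22.2 TPM in 4HC, and from AMH, at 5.34 and 5.39 TPM. The labelled cell type thus lacked most of its defining markers at the RNA level. Among markers of other cell types, the epithelial list summed to 6.03 to 8.38 TPM over the 6 samples, with KRT8 at 87 to 122 counts and EPCAM at 0 or 1. The fibroblast list summed to 1.14 to 1.45 TPM and the blood and immune list to 0.49 to 0.98 TPM, with PTPRC at 19 to 43 counts and CD14 at 0 to 3. The endothelial markers PECAM1 and CDH5 had at most 1 count in any sample. SMARCA2, a chromatin remodelling ATPase, had 0 to 4 counts, and its paralog SMARCA4 had 345 to 461 counts. The part of these marker levels in the results was not tested.

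Polo-like kinases are serine/threonine kinases that bind their partners through polo-box domains at the carboxyl end. PLK1 drives entry into mitosis, spindle assembly, chromosome segregation and cytokinesis, and its mRNA peaks in G2 and mitosis. PLK4 controls centriole duplication. PLK2 and PLK3 are known as stress-responsive kinases whose genes can be induced by growth factors and by p53. In cycling cells, genes such as PLK1 are known to be repressed through the CHR element by the DREAM complex when p53 and p21 are active.

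The promoters of the 4 genes are shown because the kinases differed in direction between the groups. Each window holds 250 bases before and 50 bases after the RefSeq start (GRCh38.p14), on the strand of the gene, and capitals mark matches to the searched motifs. The windows are chr16:23678639-23678938 on the plus strand for PLK1, chr5:58460037-58460336 on the minus strand for PLK2, chr1:44800127-44800426 on the plus strand for PLK3 and chr4:127880643-127880942 on the plus strand for PLK4.
PLK1: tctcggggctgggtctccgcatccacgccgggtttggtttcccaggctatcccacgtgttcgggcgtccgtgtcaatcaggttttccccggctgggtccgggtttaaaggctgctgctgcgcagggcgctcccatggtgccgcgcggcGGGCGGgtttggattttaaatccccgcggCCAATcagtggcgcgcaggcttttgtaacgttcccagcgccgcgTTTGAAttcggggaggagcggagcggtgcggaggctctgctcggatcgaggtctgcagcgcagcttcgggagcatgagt
PLK2: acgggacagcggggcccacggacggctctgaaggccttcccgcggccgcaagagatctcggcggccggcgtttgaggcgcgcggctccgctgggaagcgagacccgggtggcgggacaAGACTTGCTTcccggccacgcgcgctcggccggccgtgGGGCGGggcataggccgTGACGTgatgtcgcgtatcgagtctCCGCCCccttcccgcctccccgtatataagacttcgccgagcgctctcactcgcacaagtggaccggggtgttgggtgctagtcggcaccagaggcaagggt
PLK3: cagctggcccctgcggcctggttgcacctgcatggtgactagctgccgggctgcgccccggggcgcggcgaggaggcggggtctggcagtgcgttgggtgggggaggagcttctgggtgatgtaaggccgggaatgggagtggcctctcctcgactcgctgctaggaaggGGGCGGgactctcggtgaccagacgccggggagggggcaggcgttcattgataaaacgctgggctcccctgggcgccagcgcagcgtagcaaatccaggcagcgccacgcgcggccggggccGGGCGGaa
PLK4: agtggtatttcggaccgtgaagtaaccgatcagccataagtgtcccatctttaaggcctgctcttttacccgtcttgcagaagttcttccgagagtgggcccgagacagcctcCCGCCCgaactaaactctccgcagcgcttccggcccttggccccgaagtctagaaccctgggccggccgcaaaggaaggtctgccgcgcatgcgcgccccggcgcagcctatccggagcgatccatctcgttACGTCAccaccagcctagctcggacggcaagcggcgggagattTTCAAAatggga

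The motifs were searched on both strands of these windows. The PLK1 window held 1 CHR (TTTGAA) 29 bases before the RefSeq start and 1 CCAAT box (CCAAT) 73 bases before it. These positions depend on the start used: the GENCODE transcript of PLK1, NM_005030, starts earlier, at 23678822, so that this CHR lies inside it. The PLK4 window held 1 CHR on the opposite strand, 39 bases into the transcript. The CHR was present in 15.2% of all 35116 promoter windows of the same length, and the CCAAT box in 34.6%. The PLK2 window held 1 p53 half-site, present in 6.63% of all windows, and 1 CRE half-site (TGACGT), present in 7.98%. The GENCODE transcript of PLK2, NM_006622, starts at 58460260 on the minus strand, so that both half-sites lie inside it. A CRE half-site was also found in the PLK4 window. The PLK3 window held 2 GC boxes (GGGCGG), a motif of 45% of all windows, and no match to the other motifs. However, this window lies inside the deposited PLK3 gene, which starts at 44799952, so sequence before that start was not searched. The GENCODE transcript of PLK3, NM_004073, starts at 44800225, and most of the window lies past that start. The GC box was the only motif found in all 4 windows. The searched letters of an E2F site (TTTGGCGC, TTTCCCGC, TTTGCCGC or TTTCGCGC) and the CArG box were in none of the 4. No matches overlapped each other in these windows. The PLK4 gene had 2 further windows at later starts, which held GC boxes and 1 CCAAT box but no CHR.

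PLK1 (NCBI Gene 5347, chromosome 16, 23678889 to 23690367, GRCh38), the mitotic kinase, was lower in 4HC. Its expression, in CPM normalized by the TMM method, was 115, 116 and 117 in control replicates 1 to 3 and 73.6, 71.6 and 64.6 in 4HC replicates 1 to 3. Every 4HC sample lay below every control sample, and the 4HC samples were spread more widely. The mean was 116 ± 0.965 CPM in control and 69.9 ± 4.75 CPM in 4HC (SD, n = 3), so that 60.3% of the control level remained. The log2 fold change was -0.73 (standard error 0.045). In bulk RNA, fewer cells in mitosis and less PLK1 mRNA per cell cannot be told apart.

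PLK3 (NCBI Gene 1263, chromosome 1, 44799952 to 44805995), a kinase of the stress and DNA damage response, was higher in 4HC. It was at 7.95, 7.26 and 7.42 CPM in the controls, from 129, 118 and 123 reads. In 4HC replicates 1 to 3 it was at 22.45, 19.4 and 22.7 CPM, from 372, 315 and 371 reads. The groups did not overlap, and replicate 2 was the lowest of the 4HC samples. The fold change was 2.85, and the log2 fold change was 1.51 (standard error 0.092). PLK3 was the only one of the 4 genes with a change of at least 2-fold, a size reached at an unadjusted p-value under 0.05 by 1.15% of the 12368 genes tested. With so few reads, counting alone gives a coefficient of variation of 9% in control and 5.32% in 4HC, beside an observed one of 4.78% and 8.48%.

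PLK2 (NCBI Gene 10769, chromosome 5, 58453982 to 58460086), a kinase of the stress response and of synaptic plasticity, was nearly level between the groups. The controls had 121, 122 and 125 CPM and the 4HC samples 129, 127 and 125 CPM, and the groups overlapped, since control replicate 3 lay above 4HC replicate 3. The log2 fold change was 0.05 (standard error 0.039), a fold of 1.04.

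PLK4 (NCBI Gene 10733, chromosome 4, 127863362 to 127899224), the kinase of centriole duplication, was slightly higher in 4HC. Control replicates 1 to 3 had 56, 53.9 and 52.5 CPM, and the corresponding 4HC replicates had 60.8, 57.4 and 59.7 CPM. The groups did not overlap, but the gap between control replicate 1 and 4HC replicate 2 was small. The log2 fold change was 0.13 (standard error 0.05), a fold of 1.1. Thus the groups did not overlap in 3 of the 4 genes, as they did not in 45.3% of all genes tested, and the members were chosen with these values known. PLK5, the remaining gene of the family, had 3 to 9 counts per sample or 0.13 to 0.38 TPM, and was not tested.

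**Figure D1:**
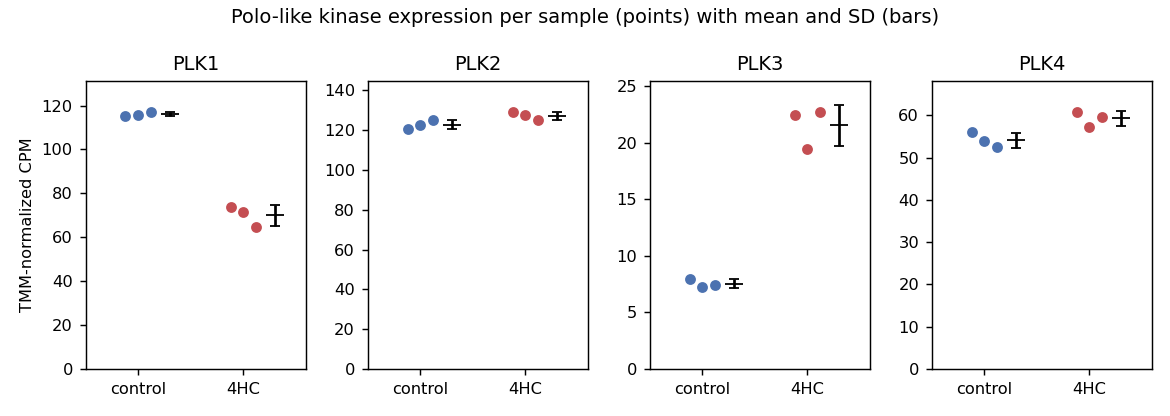
TMM-normalized CPM (vertical axes, each from 0) of PLK1, PLK2, PLK3 and PLK4 in 3 control (blue) and 3 4HC (red) samples, with the mean and SD in black. The 3 PLK1 points of 4HC lie below the controls (69.9 against 116 CPM), those of PLK3 above them (21.5 against 7.54 CPM), and the PLK2 groups overlap.

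Levels were compared between the genes on the TPM scale, which accounts for transcript length. In control the order of levels was PLK1, PLK2, PLK4 and PLK3, at 96.9 ± 1.36, 76.9 ± 1.75, 24.1 ± 0.816 and 5.75 ± 0.295 TPM (SD, n = 3). In 4HC, PLK2 was highest at 79.2 ± 1.64 TPM, followed by PLK1 at 58.1 ± 4.05, PLK4 at 26.4 ± 0.955 and PLK3 at 16.3 ± 1.47 TPM. Neighbours in either order did not overlap in any sample, and PLK1 and PLK2 changed places between the groups. PLK1 was above 88.4% of the tested genes in control and above 80.7% in 4HC, and PLK3 was above 26.3% in control and 47.9% in 4HC.

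The make-up of Polo-like kinase mRNA differed with these levels. PLK1 held 47.4% to 47.7% of the summed TPM of the 4 genes in control and 30.6% to 33.2% in 4HC. PLK3 held 2.73% to 2.99% in control and 8.23% to 9.82% in 4HC. The share of PLK2 was 37.8% ± 0.451 in control and 44% ± 0.608 in 4HC, and the share of PLK4 was 11.8% ± 0.451 and 14.6% ± 0.513. The sum itself was 204 ± 2.72 TPM in control and 179.9 ± 6.09 TPM in 4HC. The ratio of PLK1 to PLK3 was 15.9 to 17.5 in the controls and 3.12 to 4.04 in the 4HC samples.

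**Figure D2:**
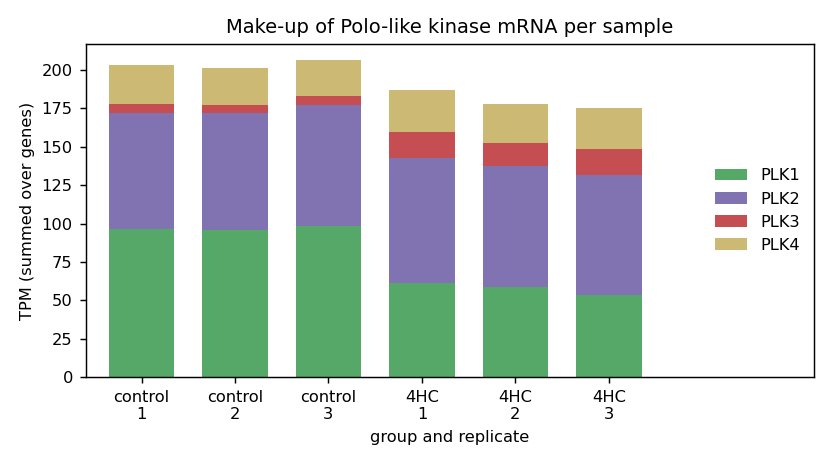
Stacked TPM of PLK1, PLK2, PLK3 and PLK4 (vertical axis, from 0) in each of the 3 control and 3 4HC samples. The PLK1 segment is shorter in 4HC (58.1 against 96.9 TPM on average) and the PLK3 segment is longer (16.3 against 5.75 TPM).

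The deposited transcript table divided the reads of the 4 genes among 10 transcripts. PLK1 and PLK3 had 1 transcript each, NM_005030 with 10 exons and NM_004073 with 15 exons, so their gene and transcript counts are the same. Nearly all PLK2 reads were assigned to NM_006622, with 14 exons, and the other PLK2 transcript had 11.5 counts in control replicate 2 and 0 in the other samples. PLK4 reads were divided among 6 transcripts. The main one, NM_014264 with 16 exons, took 78%, 84.2% and 78% of the PLK4 counts in control and 83.5%, 77.9% and 74.9% in 4HC. These shares overlapped between the groups. The second PLK4 transcript, XM_005262701, took 13.6% ± 4.5 in control and 19.4% ± 4.42 in 4HC (SD, n = 3), and its groups also overlapped. NM_001190801 had 52.3 and 28.5 counts in control replicates 2 and 3 and 0 in the other samples. As transcripts of a gene share most exons, these divisions are estimates. The GENCODE transcripts of the 4 genes had no run of 50 bases in common with each other, and 0% of such runs of PLK2 and PLK4, 0.321% of those of PLK1 and 1.53% of those of PLK3 also occurred in transcripts of other genes. The search compared GENCODE transcripts on their own strand only, and the deposited XM transcripts of PLK4 were not checked as such.

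Genes that activate PLK1 or control mitotic entry, inhibitors of CDK1 included, were split in direction, with 5 of 12 higher and 3 lower in 4HC. Among all genes tested, 19.2% were higher and 17.1% lower by edgeR's quasi-likelihood test, with p-values adjusted by the Benjamini-Hochberg method and a threshold of 0.05. The 3 lower genes were CCNB1, AURKA and CCNB2. CCNB1, the cyclin B1 partner of CDK1, was at 180, 168 and 181 CPM in the controls and 113, 119 and 124 CPM in 4HC, and fell by 0.57 on the log2 scale (standard error 0.04, adjusted p = 3.97e-17 from edgeR). AURKA, the kinase that phosphorylates and activates PLK1, was at 101, 99.6 and 106 CPM in control and 80.6, 78.3 and 76.3 CPM in 4HC. AURKA fell by 0.38 (standard error 0.043, adjusted p = 2.85e-10 from edgeR). For CCNB1 and AURKA every 4HC sample lay below every control.

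BORA, the cofactor through which AURKA acts on PLK1, was at 20.7 ± 1.67 CPM in control and 18.6 ± 1.44 CPM in 4HC, with overlapping groups. Its log2 fold change was -0.16 (adjusted p = 0.0971 from edgeR), and it passed the threshold without control replicate 1 (adjusted p = 0.0451). In the other direction, PKMYT1, a kinase that inhibits CDK1 and is itself a target of PLK1, was at 24.8 ± 1.73 CPM without 4HC and 39.8 ± 2.51 CPM with it, and rose by 0.68 on the log2 scale (adjusted p = 5.77e-13 from edgeR). CDK1 rose from 587 ± 24.6 to 701 ± 23.8 CPM while its cyclin CCNB1 fell. The median log2 fold change of the 12 genes was 0.03, beside 0.005 for all genes tested.

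Docking partners and substrates of PLK1 in mitosis were also split, with 5 of 22 higher and 7 lower, beside 19.2% and 17.1% of all genes tested. CDC20, the activator of the anaphase-promoting complex, was at 103, 103 and 105 CPM in control and 69.8, 64.2 and 63 CPM in 4HC. CDC20 fell by 0.66 on the log2 scale (standard error 0.045, adjusted p = 1.24e-17 from edgeR), the lowest value of the list. CENPU, which docks PLK1 at kinetochores, rose from 52.5 ± 2.94 to 76.4 ± 2.89 CPM (log2 fold change 0.54). ERCC6L, a DNA translocase of anaphase bridges that binds PLK1, rose from 26.3 ± 0.918 to 36.3 ± 1.48 CPM (log2 fold change 0.46). BUB1 was among the lower genes and BUB1B, its paralog, did not pass the threshold, with log2 fold changes of -0.20 and -0.07.

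Of the transcriptional regulators of G2/M genes, 5 of 13 were higher and 3 lower, beside 19.2% and 17.1% of all genes tested. The median log2 fold change of the list was 0.15, beside 0.005 for all genes tested. FOXM1, a transcription factor that activates PLK1, was at 117, 124 and 115 CPM in control and 154, 151 and 154 CPM in 4HC. It rose by 0.37 on the log2 scale (standard error 0.039, adjusted p = 3.82e-11 from edgeR). MYBL2, which like FOXM1 binds the MuvB complex, rose by 0.40, from 98.9 ± 3.25 to 130.5 ± 5.4 CPM. E2F5, a repressor E2F, fell by 0.40, from 47.9 ± 1.13 to 36.2 ± 1.62 CPM. Among subunits of MuvB, LIN37 rose by 0.46 and LIN54 by 0.25, while LIN9 and LIN52 had log2 fold changes of 0.16 and 0.15 and did not pass the threshold.

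The CHR letters of the PLK1 promoter were found in 5 of the 8 mitotic entry genes and 9 of the 20 docking partners and substrates that had a promoter window, beside 18.2% of all genes with one. Of the 5 mitotic entry genes with a CHR, 3 were higher (CDK1, CDC25C and GTSE1) and 1 lower (CCNB2). Of the 9 docking partners and substrates with a CHR, 2 were higher (ERCC6L and FBXO5) and 2 lower (CDC20 and PRC1). Across the tested genes other than the 4 kinases, 18.3% of the 1378 with a CHR and 17.5% of all 10038 with a window had lower expression in 4HC, and the median log2 fold changes were 0.001 and 0.005. The genes with these letters as a whole were close to the background. A match of the letters, present in 18.2% of genes with a window, does not show control through a CHR, which was not tested.

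Of the 21 genes listed as PLK4 partners or as other centriole genes, 14 were higher and 0 lower in 4HC. Among all genes tested, 19.2% were higher and 17.1% lower. The median log2 fold change was 0.25. CEP152, a scaffold that recruits PLK4 to the centriole, was at 28.3, 23.4 and 26.1 CPM in control and 33.3, 40.2 and 35 CPM in 4HC. CEP152 rose by 0.48 on the log2 scale (standard error 0.068, adjusted p = 8.83e-08 from edgeR), without overlap. STIL, a substrate and activator of PLK4, was at 49.5, 48.2 and 50.2 CPM in control and 59.2, 62.2 and 66.1 CPM in 4HC. STIL rose by 0.34 (standard error 0.051, adjusted p = 2.59e-07 from edgeR). POC1A, a centriole protein, and TUBG1, the gamma-tubulin of the microtubule-nucleating ring, rose by 0.54 and 0.46. CETN3 and POC5, 2 proteins of the centriole's distal part, had log2 fold changes of -0.12 and -0.13 and did not pass the threshold.

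Of the 8 genes that turn PLK4 over or sense centriole number, 2 were higher and 2 lower, close to the 19.2% and 17.1% of all genes tested. PIDD1, which activates caspase-2 when centrosomes are in excess and is also a known p53 target, had 35.3 ± 2.04 CPM without 4HC and 62.6 ± 4.21 CPM with it, and rose by 0.83 on the log2 scale (standard error 0.056, adjusted p = 8.31e-18 from edgeR). CASP2, which encodes caspase-2, rose by 0.18 (adjusted p = 0.00262 from edgeR). BTRC, a ubiquitin ligase subunit that marks PLK4 for degradation, fell by 0.15 (adjusted p = 0.0202 from edgeR). Without 4HC replicate 2 the changed genes of the list were 2 instead of 4, as BTRC (adjusted p = 0.128 from edgeR) and TP53BP1 no longer passed. BTRC also did not pass without control replicate 2 (adjusted p = 0.112) or control replicate 3 (adjusted p = 0.0606), nor with DESeq2 (adjusted p = 0.0664).

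**Figure D3:**
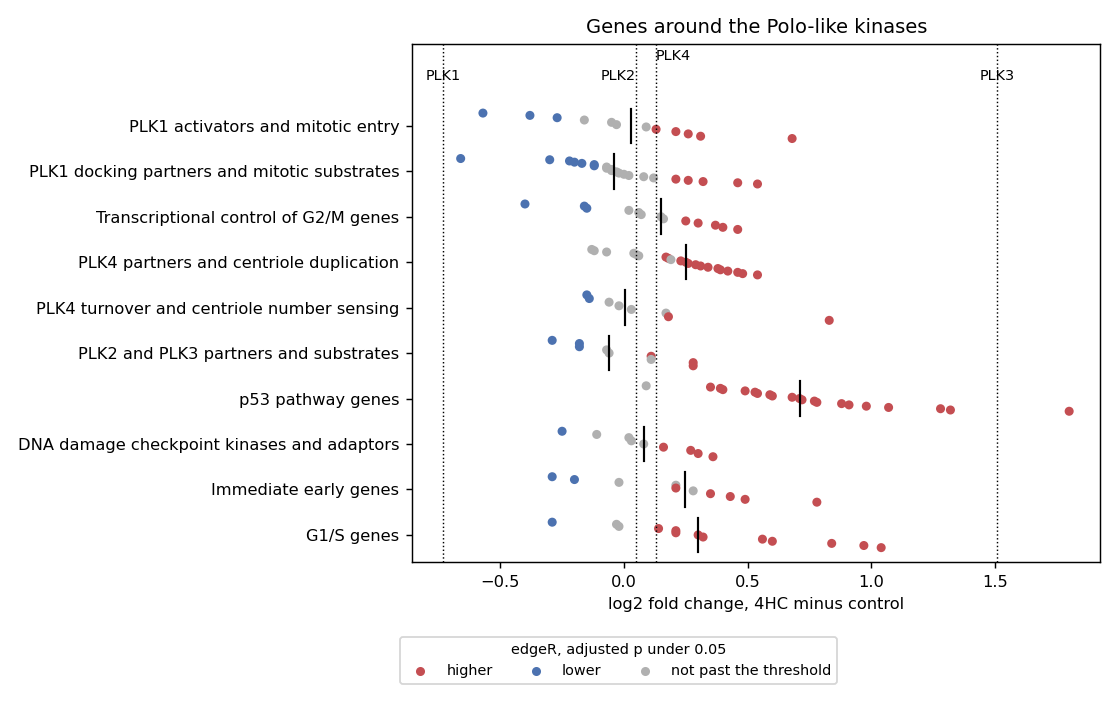
Log2 fold change (4HC minus control, horizontal axis) of each tested gene in 10 lists of genes around the Polo-like kinases, red or blue where edgeR's adjusted p-value was under 0.05, with the list median as a black bar and the 4 kinases as dotted lines. PLK1 (-0.73) lies below every gene shown, and PLK3 (1.51) lies between the p53 targets FDXR (1.32) and CDKN1A (1.80).

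Genes known to act with PLK2 and PLK3 were split, with 3 higher and 3 lower of the 9 tested, beside 19.2% and 17.1% of all genes tested. RASGRF1 was not tested. VRK1, a kinase phosphorylated by PLK3, rose by 0.28, from 45.6 ± 0.942 to 55.5 ± 2.08 CPM (adjusted p = 1.42e-05 from edgeR). CIB1, a calcium-binding protein that binds PLK2 and PLK3, rose by 0.28, from 15.2 ± 1.46 to 18.5 ± 1.21 CPM. The 6 changed genes became 3 without control replicate 2, without 4HC replicate 1 and without 4HC replicate 2, and CIB1 lost its call without 4HC replicate 1 (adjusted p = 0.0519 from edgeR) and with DESeq2 (adjusted p = 0.0603).

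Of the 21 genes in the p53 pathway list, 20 were higher and 0 lower, beside 19.2% and 17.1% of all genes tested. The log2 fold changes of the list had a median of 0.71. CDKN1A, which encodes the CDK inhibitor p21, was at 220, 233 and 221 CPM in control and 800, 786 and 764 CPM in 4HC. It rose by 1.80 on the log2 scale (standard error 0.033, adjusted p = 2.5e-42 from edgeR). MDM2, the ubiquitin ligase of p53, was at 444, 443 and 450 CPM in control and 872, 882 and 881 CPM in 4HC, and rose by 0.98 (standard error 0.03, adjusted p = 6.75e-32 from edgeR). FDXR and BTG2 rose by 1.32 and 1.28. PLK2 and PLK3 are both in the hallmark p53 pathway set of the deposited annotation, in which 86 of 163 tested genes were higher and 12 lower. The log2 fold changes of 1.51 for PLK3 and 0.05 for PLK2 thus differed widely within that set.

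PLK1 and PLK4 are both in the hallmark sets of E2F targets and of the G2/M checkpoint. Of the E2F targets, 96 of 200 tested genes were higher and 36 lower, and the median change was 0.09 on the log2 scale. For comparison with each set, 19.2% of all genes tested were higher and 17.1% lower, with a median of 0.005. Of the G2/M checkpoint genes, 61 of 195 were higher and 64 lower, with a median of -0.01. Both kinases are also in the second set of MYC targets, in which 4 of 58 genes were higher and 40 lower, with a median of -0.20. PLK1 is further in the sets of mTORC1 signalling, with 31 of 189 higher and 71 lower, and of the mitotic spindle, with 44 of 192 higher and 38 lower. PLK4 is in the set of the late estrogen response, with 40 of 134 higher and 26 lower, and PLK2 in that of TNF signalling through NF-kB, with 48 of 152 higher and 22 lower. These hallmark counts include the kinases themselves.

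**Figure D4:**
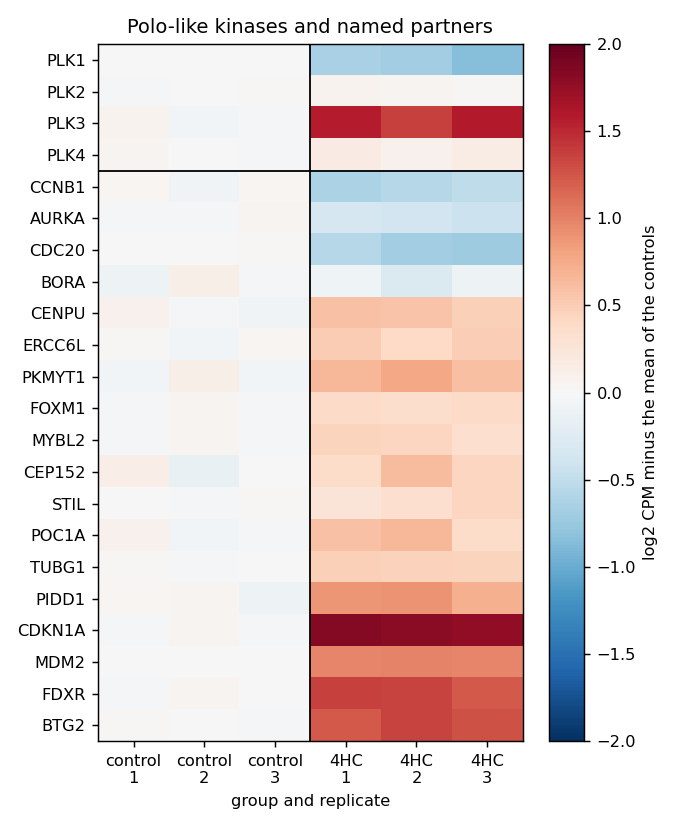
Log2 CPM of PLK1 to PLK4 (top) and of 18 named genes (below), minus the mean of the 3 controls, in each sample (columns). PLK1, CCNB1, AURKA and CDC20 are blue in all 3 4HC samples, and PLK3, CDKN1A, MDM2, FDXR and BTG2 are red in all 3.

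Checkpoint kinases and their adaptors were less uniform, with 4 of 9 higher and 1 lower. The shares of all genes tested, for this list and those below, were 19.2% higher and 17.1% lower. CLSPN, the CHEK1 adaptor whose destruction is triggered by PLK1, had 68 ± 2.9 CPM without 4HC and 87.4 ± 2.26 CPM with it, and rose by 0.36 on the log2 scale (adjusted p = 4.85e-09 from edgeR). CHEK2 and ATRIP rose by 0.30 and 0.27. Immediate early genes, the class in which PLK2 and PLK3 were first described, had 5 of 10 higher and 2 lower. NR4A1 rose from 4.65 ± 0.344 to 7.96 ± 0.552 CPM (log2 fold change 0.78), EGR1 by 0.49 and JUNB by 0.35, while MYC fell by 0.29. Of the G1/S genes, 10 of 13 were higher and 1, MCM6, was lower. PCNA, CDT1 and RRM2 rose by 1.04, 0.97 and 0.84.

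The genes whose 6-sample profile was nearest to each kinase were found by the root mean square difference of log2 CPM, centred on each gene's mean, with 0.5 added to each CPM. The search covered the 10371 tested genes whose mean reached 5 CPM in control or in 4HC. With little spread within the groups, such a profile mostly reflects the change between 4HC and control, known when the kinases were chosen. Shared regulation with the nearest genes was not tested. For PLK1 the nearest were CDC20 (difference 0.051), ZBTB12 (0.067) and DLG3 (0.069), and 8 genes lay within 0.1. For PLK3 they were EPS8L2 (0.082), ADAMTS7 (0.091) and TP53I3 (0.12), with 2 genes within 0.1. TP53I3, a known p53 target, was at 65 ± 1.34 CPM in control and 193 ± 4.99 CPM in 4HC. EPS8L2 was at 8.75 ± 0.537 and 23.7 ± 0.935 CPM. For PLK2 and PLK4, 5714 and 4106 genes lay within 0.1, so that their nearest genes, FKBP1A, KAT7 and APMAP for PLK2 and PPIC, TEPSIN and WRAP53 for PLK4, are a few among many similar profiles.

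The coding genes beside PLK3 were examined because reads near its end could belong to them. DYNLT4, on the opposite strand, overlaps the deposited end of PLK3 and had 1 to 3 counts in control and 5 to 10 in 4HC. BTBD19, which starts 1447 bases past the deposited end of PLK3 on the same strand, had 3, 7 and 5 counts in control and 26, 25.1 and 32 in 4HC. BTBD19 rose by 2.44 on the log2 scale (adjusted p = 1.43e-07 from edgeR), from a level below 1 CPM in every control. HSPA4L overlaps the deposited start of PLK4 on the same strand, but ends before the RefSeq start used for the PLK4 promoter. HSPA4L rose by 0.26 (adjusted p = 5.11e-08 from edgeR), with a mean of 3864 counts in control and 4635 in 4HC. PLK4 had fewer, at 870 to 909 counts in control and 930 to 1008 in 4HC. Whether reads of HSPA4L entered the PLK4 counts was not tested. ERN2 overlaps the last bases of PLK1 and had at most 1 count in any sample.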

How the data were processed

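Total RNA of 6 COV434 samples, 3 control and 3 4HC, was sequenced. Reads were filtered by the authors with SOAPnuke and then analysed on the Dr. Tom system, and the submitters' processing notes name HISAT2, Bowtie2, RSEM 1.3.1, DESeq2 1.4.5 and GRCh38.p13. The authors deposited expected counts per gene and transcript, of which 85.5% were whole for genes within 0.005, and TPM and FPKM values scaled to length. The authors' own fold changes, p-values and q-values, and a second gene table with the same values, were not used.

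After rounding of the expected counts, edgeR 4.0.16 was run in R 4.3.3 (TMM, filterByExpr, quasi-likelihood test, condition only), which left 12368 genes. Adjusted p-values are Benjamini-Hochberg over all of them. The script was tested on simulated data. Members, lists and the rule for named genes were chosen with earlier results of these data known. The rule took 8 set partners, up to 3 genes per list with the largest change that passed the threshold of 0.05 without overlap of the groups and with a mean of 5 CPM or more in one of them, and the 3 nearest profiles of each kinase. Other named genes, such as CCNB2, CDK1, BUB1, LIN9, LIN37, POC5, MYC, MCM6 and BTBD19, were named after their values were seen, and so were the hallmark sets. Alternatives were DESeq2 1.42.0, its size factors in edgeR, library size only, no filter, a minimum of 10 counts per sample, a block for the replicate number, limma 3.58.1 on log2 TPM with a pseudocount of 1 or 0.1, and each sample left out. Within groups, replicate pairs differed by a chi-square of 1.7 to 2.46 per gene, more than sampling noise. Promoters are RefSeq windows, and exons and transcripts are from GENCODE release 29 (GRCh38). Protein sequences were not used here. Results of some listed genes are not reported here.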

Additional observations from a re-analysis of the deposited data

How the results depend on the processing

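PLK1 kept its direction with log2 fold changes of -0.77 to -0.68 when each sample was left out, PLK2 with 0.04 to 0.06, PLK3 with 1.47 to 1.58 and PLK4 with 0.11 to 0.15. With limma on log2 TPM and a pseudocount of 1, which understates changes of low genes, PLK3 was at 1.36. Genes changed numbered 4497, 3632 to 4283 with a sample left out, 3194 with DESeq2 and 4215 with the replicate number as a block. Same-numbered samples had correlations of 0.00875, 0.0693 and 0.0304 in their deviations from the group means, so the numbers were not taken as pairs, and control replicate 1 correlated better with 4HC replicate 3 (0.0457) than with its own number. Library size alone as the scaling raised the median of all genes from 0.005 to 0.026, and the calls were then 2725 higher and 1735 lower in place of 2379 and 2118, or 61.1% higher in place of 52.9%.

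The list of PLK2 and PLK3 partners had 6 changed genes, 2 with DESeq2, 3 with limma at either pseudocount and 3 to 5 with a sample left out. The list on PLK4 turnover had 4, and 2 to 4 with a sample left out. The cause was not tested. The other lists stayed within 1.5 times of their counts under every alternative run. Of 630 values of the 45 named genes under the alternatives, 619 kept their direction and side of the threshold, 8 lost the call, 3 gained it and 0 reversed. The main PLK4 transcript's share was 78% to 81.1% in control and 76.4% to 80.7% in 4HC with a sample left out. FPKM in place of TPM cannot change a ratio of 2 genes within a sample and tested nothing. Depth limits genes and transcripts with few counts, among them PLK5, DYNLT4, BTBD19, PLK3 and the minor PLK4 transcripts.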
